A study of Mus musculus with 8 samples.

Results

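The T cell receptor variable segments are the 170 rows, of 54018 in the deposited table, whose identifiers carry a symbol starting with Trav, Trbv, Trgv or Trdv in the GENCODE M21 annotation. They comprise 128 Trav segments of the α chain, 35 Trbv segments of the β chain, 6 Trdv segments of the δ chain and 1 Trgv segment of the γ chain, Trgv2. The annotation gives 136 of them as variable genes and 34 as variable pseudogenes. Trav and Trdv lie on chromosome 14, Trbv on chromosome 6 and Trgv2 on chromosome 13 (GRCm38). A further 8 variable-segment rows carry other symbols, most of them Tcrg-V, and are outside this rule.

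RNA abundance was measured in splenic mononuclear cells of leukaemic C57BL/6 mice. All 8 libraries carry Eµ-TCL1A, which drives human TCL1A in B cells and serves as a model of chronic lymphocytic leukaemia. The labels name 4 libraries Kdm1aKD;Eµ-TCL1A, in which doxycycline induces knockdown of the histone demethylase Kdm1a (knockdown, replicates 1, 2, 5 and 4), and 4 with the transgene alone (control, replicates 1 to 4). They do not say whether control mice received doxycycline, give no ages and do not say which animal each library came from, so every p-value measures the spread between libraries.

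A T cell joins 1 variable segment to further segments of the same chain during its development in the thymus and transcribes it together with a constant region, so each clone carries its own choice. In a bulk spleen sample the reads of a variable segment therefore come from the T cells that chose it, and the list of segments in use reflects the mixture of T cell clones. α and β chains form the receptor of most T cells, and γ and δ chains that of a smaller lineage.

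The 3′ end of a variable segment is where the receptor's most variable loop begins. Printed for reference are the ends of the 8 Trbv segments of highest mean level and of Trbv20, whose values did not overlap between the groups. The ends of Trgv2, Trdv4 and Trdv5 are printed too, and no test used the ends alone. Each is the last 60 bases of the annotated transcript, with the codon of the conserved cysteine, which opens that loop, in capitals. They were read from GENCODE M21 (GRCm38).
Trbv13-2 (chr6:41121773-41121832, plus strand): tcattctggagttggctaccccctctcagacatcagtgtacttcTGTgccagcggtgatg
Trbv13-1 (chr6:41116409-41116468, plus strand): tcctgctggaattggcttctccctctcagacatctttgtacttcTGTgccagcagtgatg
Trbv13-3 (chr6:41130526-41130585, plus strand): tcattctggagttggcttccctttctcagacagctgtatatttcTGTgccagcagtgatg
Trbv3 (chr6:41048769-41048828, plus strand): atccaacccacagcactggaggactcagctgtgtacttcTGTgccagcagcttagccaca
Trbv16 (chr6:41152171-41152230, plus strand): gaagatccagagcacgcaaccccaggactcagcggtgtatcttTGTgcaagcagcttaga
Trbv29 (chr6:41271822-41271881, plus strand): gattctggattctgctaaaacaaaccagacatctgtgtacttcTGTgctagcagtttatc
Trbv5 (chr6:41062744-41062803, plus strand): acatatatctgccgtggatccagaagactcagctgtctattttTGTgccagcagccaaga
Trbv1 (chr6:40891826-40891885, plus strand): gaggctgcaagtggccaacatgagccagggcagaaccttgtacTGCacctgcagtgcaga
Trbv20 (chr6:41188918-41188977, plus strand): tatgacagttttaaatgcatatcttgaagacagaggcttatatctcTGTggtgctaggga
Trgv2 (chr13:19336573-19336632, minus strand): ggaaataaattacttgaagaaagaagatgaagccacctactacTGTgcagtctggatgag
Trdv4 (chr14:54075456-54075515, plus strand): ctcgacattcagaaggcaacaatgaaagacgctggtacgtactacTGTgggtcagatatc
Trdv5 (chr14:54148662-54148721, minus strand): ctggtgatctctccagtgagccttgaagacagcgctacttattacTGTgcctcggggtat

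The 3 Trbv13 segments are similar to each other in sequence, but nearly all of their 50-base words are found in no other annotated gene. The share of such words was 100% for Trbv13-1 and 99.7% for each of Trbv13-2 and Trbv13-3. Over their last 250 bases Trbv13-2 and Trbv13-3 were 91.2% identical, Trbv13-1 and Trbv13-2 87.2%, and Trbv13-1 and Trbv13-3 84.8%.

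Values are FPKM, the fragments of a transcript scaled by its length and by the library's size. How length was corrected for short transcripts is not given in the sources used here. Levels of segments of different length can therefore be compared only roughly. Depth, estimated from the steps between low values, lay between 37300000 and 43900000 fragments per library. The smallest value above 0 of any segment was 0.0852 FPKM. Libraries differed in their levels of cell type markers. Summed B cell markers ran from 1246 to 3267 FPKM in the knockdown and from 3481 to 4162 FPKM in the control libraries. Of these 8 markers none passed the test between the groups (limma adjusted p of 0.101 or more). 1 of the 8, Fcer2a, was higher in the knockdown, with means of 25.1 against 5.97 FPKM. Number of cells and RNA per cell cannot be told apart here. Summed erythroid markers reached 28959 FPKM in knockdown replicate 4 against 849 to 8316 FPKM elsewhere. Xist RNA, made only from an inactive X chromosome, lay between 94.9 and 175 FPKM in the 4 knockdown libraries, at 110 FPKM in control replicate 1 and no higher than 0.128 FPKM in control replicates 2, 3 and 4. For those 3 controls group and sex cannot be told apart. Kdm1a itself had 20.2, 21.0, 15.6 and 15.5 FPKM in knockdown replicates 1, 2, 5 and 4 and 24.2, 21.2, 24.1 and 31.1 FPKM in control replicates 1 to 4. The groups did not overlap, with a log2 difference of −0.45 (exact permutation p = 0.0286, the smallest the 70 assignments allow, and 0.331 adjusted over the 29 single values tested).

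T cell transcripts were plain in every library. The 20 markers of the T cell list all passed the expression filter, a level of 1 FPKM or more in 4 or more of the 8 libraries, and summed to 402 to 922 FPKM in the knockdown and 376 to 915 FPKM in the control libraries. The receptor's own signalling subunits Cd3d, Cd3e and Cd3g together had 143, 112, 75.8 and 67.8 FPKM in knockdown replicates 1, 2, 5 and 4, and 143, 62.2, 71.6 and 34.8 FPKM in control replicates 1 to 4. Of the 20 markers none passed the test between the groups in either direction. In bulk RNA fewer T cells and less RNA per T cell cannot be told apart.

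A broad repertoire was detected in every library. Of the 170 segments 106 had a value above 0 in at least 1 library, 61 in all 8, and 64 were at 0 throughout. The number detected was 94, 96, 84 and 88 in knockdown replicates 1, 2, 5 and 4 and 96, 81, 84 and 82 in control replicates 1 to 4. The groups overlapped (exact permutation p = 0.343), and each library detected between 55 and 68 Trav, 19 and 25 Trbv and 3 to 5 Trdv segments. By family, 74 of 128 Trav, 26 of 35 Trbv, 5 of 6 Trdv and the single Trgv segment were found somewhere. All 22 Trbv segments annotated as genes were detected, whereas 39 of the 108 Trav genes were at 0 in every library. Pseudogene segments were rarely seen, 9 of 34, and they held at most 0.923% of segment FPKM in any library.

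Whether a Trav segment was listed at 0 went with how much of its sequence is its own. The Trav locus of this strain is duplicated, and the duplicated copies carry the letter d or n in their symbols. For each segment the share of its 50-base words found in no other annotated gene was computed from the annotated transcripts. Of 38 Trav genes without any such word, 36 were at 0 in all libraries, the exceptions being Trav13d-3 and Trav13n-3, with means of 0.0463 and 0.274 FPKM, each of which lies across an antisense gene (Gm30214 and Gm43650). Of 29 with under 50% unique words 3 were at 0 (Trav6d-3, Trav7d-2 and Trav9d-4), and of the 41 with 50% or more none was. By symbol, 20 of 34 d copies, 16 of 28 n copies and 3 of the 46 remaining Trav genes were at 0. How the authors' processing treated reads that match several places is not given in the sources used here, and its part in these zeros was not tested.

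**Figure D1:**
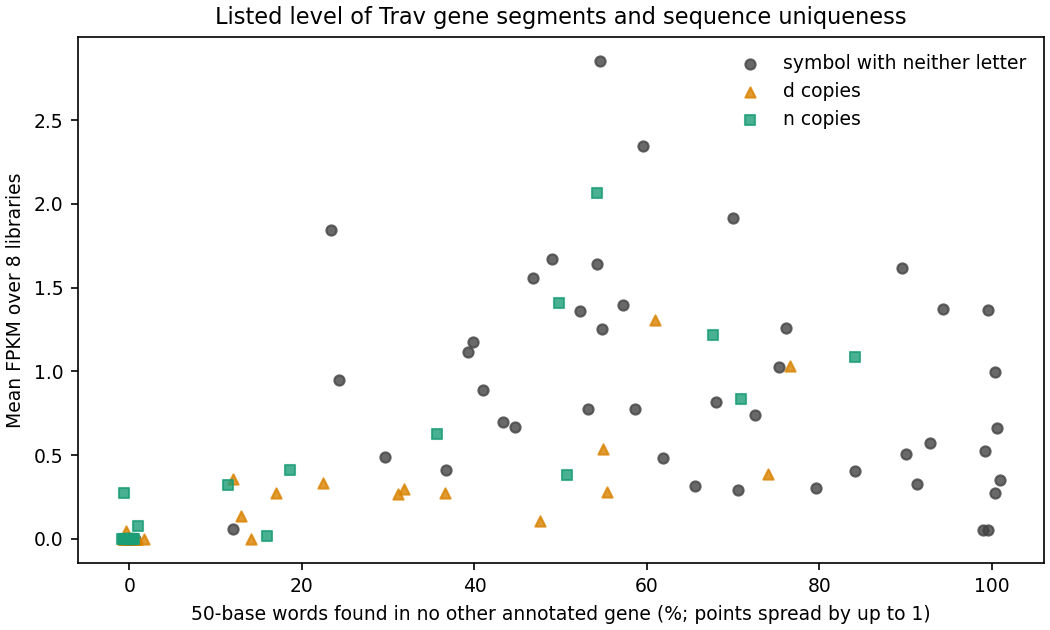
Mean FPKM over the 8 libraries (vertical axis) of each of the 108 Trav segments annotated as genes against the percentage of its 50-base words found in no other annotated gene (horizontal axis, points spread sideways by up to 1). The 38 segments without a unique word lie on the left edge, 36 of them at 0, and all 41 segments with 50% or more lie above 0.

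The annotation holds 17 pairs of segments whose longest transcripts are identical, 34 segments in all, and every one of them was listed at 0. Trav11 and Trav11d fall outside those pairs only because 1 transcript is longer by a base. They are variable segments of the invariant α chain of natural killer T cells, a T cell type that recognises lipids on CD1d. They are shown because both were at 0 in all 8 libraries and neither has a unique word. The sequences were identical over 342 compared bases, of which the last 60 are printed, with no base in capitals because none differs.
Trav11 (gene at chr14:53519303-53519859, plus strand): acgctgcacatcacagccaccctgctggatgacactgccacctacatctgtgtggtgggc
Trav11d (gene at chr14:52824357-52824912, plus strand): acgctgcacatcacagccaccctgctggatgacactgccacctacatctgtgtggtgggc

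Whether their 0 stands for a lack of RNA was not tested. Trav1, the segment of the invariant α chain of mucosal-associated invariant T cells, is by contrast unique over 100% of its words. It had 0.747, 1.40, 0 and 0 FPKM in knockdown replicates 1, 2, 5 and 4 and 0.796, 0.500, 0 and 0.741 FPKM in control replicates 1 to 4. Both groups held libraries at 0.

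The summed signal as listed was largest in the β chain. The Trav sum holds nothing from the 39 of 108 Trav genes listed at 0, 36 of them without a unique word. All 22 Trbv genes were detected, so the sums of these families are not like for like. Summed Trbv was 250.6, 261.9, 112.3 and 124.3 FPKM in knockdown replicates 1, 2, 5 and 4, and 192.0, 93.4, 95.3 and 28.7 FPKM in control replicates 1 to 4. Summed Trav was 79.4, 97.8, 38.7 and 44.0 FPKM in the knockdown replicates in that order, and 76.2, 33.2, 38.4 and 32.2 FPKM in the controls. In both families knockdown replicates 1 and 2 and control replicate 1 were high and the other 5 libraries low, so the groups overlapped. All segments together made 0.0112% to 0.0547% of the table's FPKM.

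The γ and δ segments had the same 3 high libraries at a far lower level. Trgv2 had 6.08, 5.11, 1.83 and 1.73 FPKM in knockdown replicates 1, 2, 5 and 4 and 2.98, 0.704, 1.15 and 1.46 FPKM in control replicates 1 to 4. Summed Trdv was 5.66, 5.25, 2.80 and 2.44 FPKM against 4.90, 1.30, 2.45 and 1.56 FPKM. Here too control replicate 1 lay among the knockdown values.

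No family's summed level differed between the groups beyond the spread of the libraries. On the scale of log2(sum + 1) the knockdown mean minus the control mean was 1.04 for Trbv (exact permutation p = 0.143), 0.51 for Trav (p = 0.171), 0.80 for Trgv2 (p = 0.143) and 0.55 for Trdv (p = 0.200), and all 4 adjusted values were 0.341. Against control replicate 1 alone, the only control with Xist RNA, the knockdown mean was lower by this measure, −0.14 for Trbv, −0.33 for Trav and −0.29 for Trdv, but higher by 0.10 for Trgv2, with no test possible. Leaving out control replicate 4 brought the Trbv difference to 0.54.

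**Figure D2:**
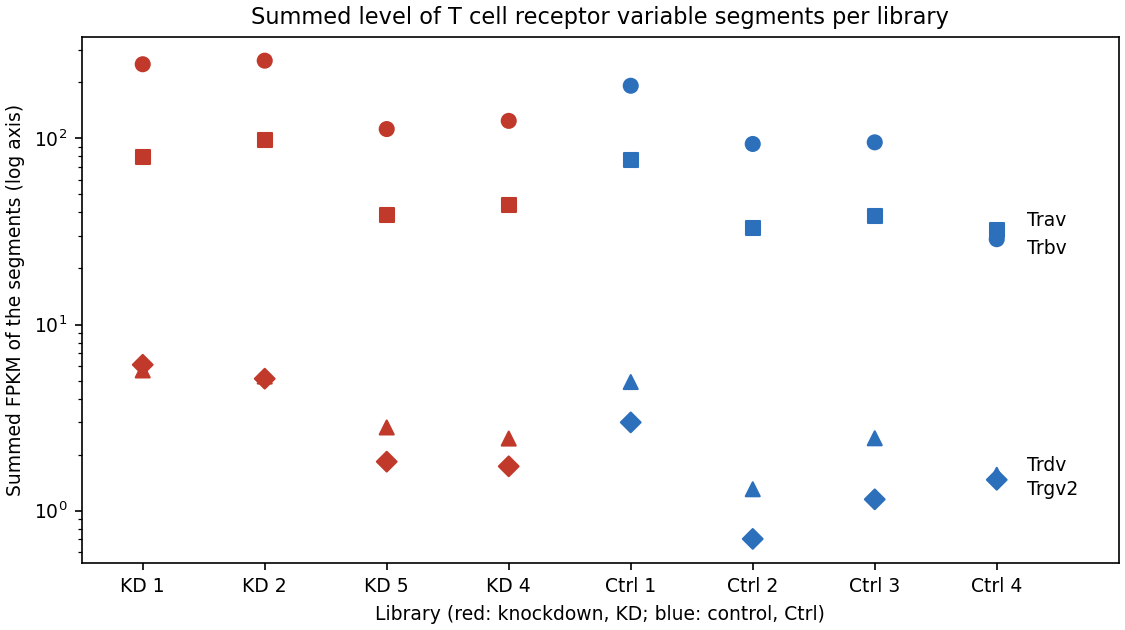
Summed FPKM (log axis) of the Trbv (circles), Trav (squares) and Trdv (triangles) segments and of Trgv2 (diamonds) in each library, knockdown in red and control in blue. Knockdown replicates 1 and 2 and control replicate 1 are the 3 highest libraries in every family, and control replicate 4 has the lowest Trbv sum, 28.7 FPKM.

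Levels of variable segments moved with those of the constant regions of the same chains, which every rearranged transcript carries. Trac, the constant region of the α chain, had 145, 145, 52.2 and 63.8 FPKM in knockdown replicates 1, 2, 5 and 4 and 123, 45.3, 56.5 and 48.2 FPKM in control replicates 1 to 4. Summed Trav per Trac was 0.546, 0.674, 0.742 and 0.690 in the knockdown and 0.619, 0.733, 0.680 and 0.667 in the control libraries. This ratio had nearly the same mean in both groups, with a log2 difference of −0.03 (exact permutation p = 0.857).

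The β constant regions Trbc1 and Trbc2 together had 244, 188, 95.4 and 122 FPKM in knockdown replicates 1, 2, 5 and 4 and 174, 76.5, 112 and 33.6 FPKM in control replicates 1 to 4. Summed Trbv per Trbc was 1.03, 1.39, 1.18 and 1.02 against 1.10, 1.22, 0.854 and 0.856, a log2 difference of 0.20 (exact permutation p = 0.257). Segment sums thus spanned 9.11-fold in Trbv while the ratio spanned 1.63-fold.

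Control replicate 4 stood apart in the balance of the chains. Its Trbv sum was 0.893 of its Trav sum, whereas this ratio was 2.48 to 3.15 in the other 7 libraries. The constant regions showed the same, with Trbc1 and Trbc2 together at 0.696 of Trac in control replicate 4 and 1.30 to 1.97 times Trac elsewhere.

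**Figure D3:**
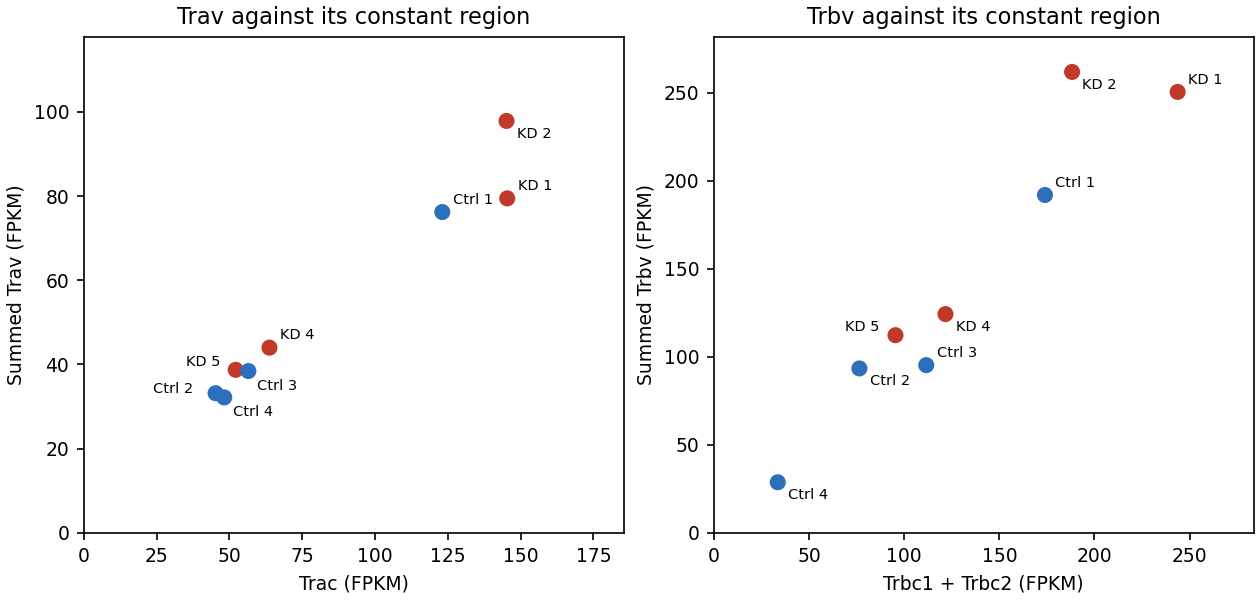
Summed Trav FPKM against Trac FPKM (left) and summed Trbv FPKM against Trbc1 plus Trbc2 FPKM (right), 1 point per library, knockdown (KD) in red and control (Ctrl) in blue. Knockdown replicates 1 and 2 and control replicate 1 lie at the upper right of both plots and control replicate 4 at the lower left of the Trbv plot.

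In the γ and δ chains the ratio of segments to constant regions varied more. Trgv2 per summed Tcrg-C spanned 8.46-fold and summed Trdv per Trdc 2.10-fold, against 1.36-fold for Trav and 1.63-fold for Trbv. The γ ratio sets Trgv2 alone against all Tcrg-C genes, because the Tcrg-V segments are outside the symbol rule. It is therefore not like the ratios of the other chains, and the part of this in its spread was not tested. The Tcrg-V rows together had 2.16 FPKM in knockdown replicate 4, where the Tcrg-C genes summed to 35.9 FPKM. In control replicate 4 they had 2.11 FPKM, against 3.59 FPKM of Tcrg-C. Tcrg-C1, a γ constant region, had 9.04, 11.6, 4.44 and 28.7 FPKM in knockdown replicates 1, 2, 5 and 4 against 4.59, 1.19, 2.01 and 1.34 FPKM in control replicates 1 to 4. Knockdown replicate 4 was the highest, and the groups touched only where knockdown replicate 5 lay under control replicate 1 (log2 difference 1.97, exact permutation p = 0.0571, adjusted 0.331). Tcrg-C2 had 9.06, 8.62, 3.78 and 4.02 FPKM against 3.97, 1.24, 2.25 and 1.32 FPKM (log2 difference 1.20, exact permutation p = 0.0571).

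Trdc, the δ constant region, had 4.06, 3.54, 1.45 and 2.06 FPKM in knockdown replicates 1, 2, 5 and 4 and 1.97, 0.897, 1.11 and 0.907 FPKM in control replicates 1 to 4 (log2 difference 0.73, exact permutation p = 0.0571). Trgv2 per summed Tcrg-C was lowest in knockdown replicate 4, at 0.0482, and highest in control replicate 4, at 0.408. Summed Trdv per Trdc ran from 1.18 to 1.92 in the knockdown and from 1.45 to 2.49 in the control libraries (log2 difference −0.38, exact permutation p = 0.171). The 10 genes of the γδ T cell list summed to 26.5 to 77.6 FPKM in the knockdown and 13.4 to 39.8 FPKM in the control libraries, with Il23r at 0 in 2 libraries and under the filter, and of the 6 past the filter all had positive differences and none passed the test.

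Within the β chain usage was much alike across libraries. Trbv13-2, a segment also used by natural killer T cells, was the most abundant Trbv in all 8 libraries. It had 24.9, 34.5, 15 and 14.1 FPKM in knockdown replicates 1, 2, 5 and 4 and 26.4, 9.89, 10.7 and 4.97 FPKM in control replicates 1 to 4. Its share of summed Trbv was 9.94%, 13.2%, 13.3% and 11.3% against 13.7%, 10.6%, 11.2% and 17.3%, highest in control replicate 4 and otherwise mixed between the groups.

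The next most abundant Trbv segments by mean were Trbv13-1 at 11.5 FPKM, Trbv3 at 11.5 FPKM, Trbv13-3 at 9.95 FPKM and Trbv16 at 9.71 FPKM. Trbv29 followed with 8.29 FPKM, Trbv5 with 7.99 FPKM and Trbv1 with 7.04 FPKM. The order among these neighbours is not resolved, since each varied several-fold over the libraries, Trbv13-1 from 1.90 to 21.5 FPKM and Trbv16 from 1.96 to 16.8 FPKM. The 3 Trbv13 segments together held 22.6% to 31.5% of summed Trbv in every library, and the leading 8 segments 53.2% to 61.5%. Trbv5 has only 22.6% unique words and Trbv4 27.9%, and both lie within the span of the long noncoding RNA gene 5830405F06Rik on the same strand, whose transcripts hold 77.4% and 72.1% of their words. Reads of these genes cannot be told apart there.

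Single segments departed from this pattern in control replicate 4. Trbv15, picked here after its values were seen, had 10.1, 11.5, 5.68 and 6.60 FPKM in knockdown replicates 1, 2, 5 and 4 and 9.01, 5.15, 5.28 and 0.124 FPKM in control replicates 1 to 4. Its share of summed Trbv was 0.432% in control replicate 4 and 4.04% to 5.54% in the other 7. Trbv14, picked in the same way, made 8.73% of summed Trbv in control replicate 4 and 2.83% to 5.33% elsewhere.

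**Figure D4:**
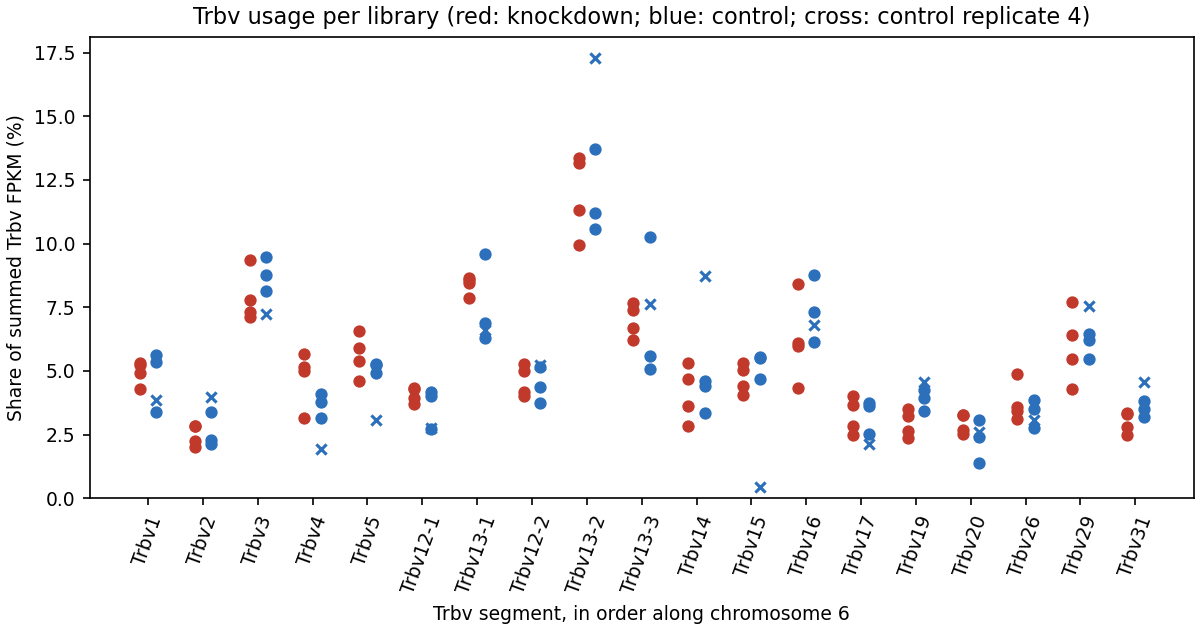
Share of summed Trbv FPKM in percent for the 19 Trbv segments past the expression filter, in their order along chromosome 6, 1 point per library (knockdown in red, control in blue, control replicate 4 as a cross). Trbv13-2 has the largest share in all 8 libraries, and the crosses of Trbv15, at 0.432%, and Trbv13-2, at 17.3%, lie apart.

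In the α chain no segment led throughout. The most abundant Trav segment was Trav13-1 in knockdown replicate 1 and control replicate 3, Trav3-3 in knockdown replicates 2 and 4, Trav12-2 in knockdown replicate 5 and control replicate 2, Trav14-2 in control replicate 1 and Trav14n-3 in control replicate 4. Trav13-1 had 6.64, 4.94, 1.69 and 1.25 FPKM in knockdown replicates 1, 2, 5 and 4 and 3.93, 1.56, 2.05 and 0.771 FPKM in control replicates 1 to 4. Trav3-3 had 2.41, 5.61, 0.889 and 3.83 FPKM against 3.11, 1.13, 1.67 and 0.10 FPKM. The 8 Trav segments of highest mean held 22.7% to 33.5% of summed Trav, with the means of the other 6 (Trav14n-3, Trav12-2, Trav13-4-dv7, Trav6-7-dv9, Trav14-2 and Trav7-5) between 1.62 and 2.07 FPKM. The d copies together contributed 8.01% to 11.3% and the n copies 10.8% to 20.4% of summed Trav.

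The top segment's share of summed Trav was the one measure of usage whose groups did not overlap. It was 8.36%, 5.74%, 5.46% and 8.71% in knockdown replicates 1, 2, 5 and 4 and 5.21%, 5.03%, 5.34% and 5.25% in control replicates 1 to 4. The means were 7.07% ± 1.71 (SD, n = 4) and 5.21% ± 0.130 (SD, n = 4), with an exact permutation p of 0.0286 and 0.331 after Benjamini-Hochberg adjustment over 29 values. Knockdown replicate 5 exceeded the highest control by a small margin, and the segments that lead differ between the libraries. When segments were summed by family number, the difference of 1.86 percentage points became 1.40 and the groups' exact permutation test no longer reached the threshold. Nor did it with any 1 of the 4 control libraries left out (exact permutation p up to 0.171). In those cases the groups still did not overlap.

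Evenness did not separate the groups. Pielou evenness, which is 1 when all detected segments are equally abundant, ran from 0.912 to 0.938 in the knockdown and from 0.922 to 0.942 in the control libraries for Trav (exact permutation p = 0.257). For Trbv the range was 0.913 to 0.935 against 0.918 to 0.945 (exact permutation p = 0.200). The effective number of segments, the exponential of the Shannon entropy, was 45.8 ± 3.19 against 45.6 ± 2.37 for Trav (SD, n = 4 each, exact permutation p = 0.857) and 18.2 ± 0.607 against 17.3 ± 1.31 for Trbv (SD, n = 4 each, exact permutation p = 0.314). No library came close to a repertoire of 1 or a few segments.

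Tested one by one, the segments gave few calls. Of the 170, 44 passed the filter (23 Trav, 19 Trbv, Trgv2 and Trdv4), and limma on log2(FPKM + 1), adjusted over 12890 genes, called 1 of them higher in the knockdown libraries, 2.27% of 44, and 0 lower. Over all genes 1.63% were called higher and 0.109% lower, so the share among the segments is near the background. At an unadjusted p under 0.05 there were 5 of 44 segments, where all genes had 19.2%. Values without overlap between the groups, all higher in the knockdown, were found for 2 of 44 segments, against 11.2% of all genes.

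The direction of the differences was mostly one way. Of the 44 segments 40 had a positive difference, knockdown minus control, and the median was 0.56 on the log2 scale, where 63.7% of all genes were positive with a median of 0.13. Median-of-ratios scaling brought the segments' median to 0.47 and that of all genes to −0.017. All 19 Trbv differences were positive, between 0.46 and 1.21 with a median of 0.86, and 20 of 23 Trav differences were positive with a median of 0.32. The negative ones were Trav7-5, Trav16n, Trav13n-4 and Trdv4. The segments share their libraries. Of the 44, 21 had their highest value in knockdown replicate 2, 15 in knockdown replicate 1 and 6 in control replicate 1, and 31 had their lowest in control replicate 4. Without control replicate 4 the segments' median was 0.34, and without control replicate 1 it was 0.81.

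**Figure D5:**
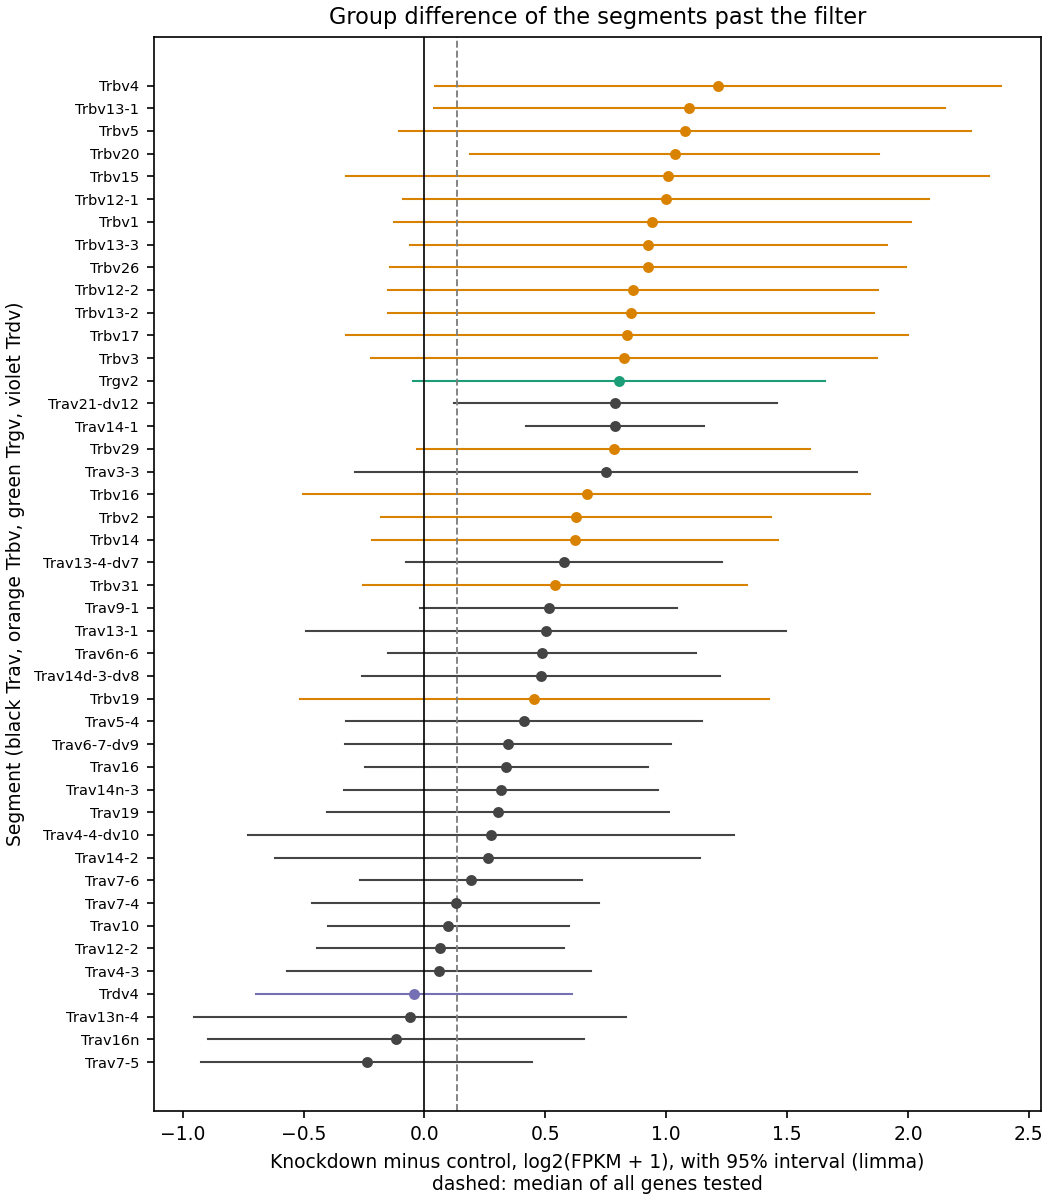
Knockdown minus control on the log2(FPKM + 1) scale with its 95% interval from limma (horizontal axis) for the 44 segments past the filter, Trav in black, Trbv in orange, Trgv2 in green and Trdv4 in violet. 40 of 44 points lie right of 0 and most intervals include 0, with the dashed line at the median of all genes tested, 0.13.

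The called segment was Trav14-1 (ENSMUSG00000076840, chromosome 14, 53554022 to 53554558, plus strand, GRCm38). It had 2.18, 2.36, 1.83 and 1.66 FPKM in knockdown replicates 1, 2, 5 and 4 and 0.927, 0.769, 0.611 and 0.650 FPKM in control replicates 1 to 4. All knockdown values exceeded all control values, including control replicate 1, in which most other segments were high. The log2 difference was 0.79 ± 0.16 (SE), with an adjusted p of 0.0486 in limma. The call rests on every library. With any 1 of the 8 left out it was lost, at adjusted p-values of 0.0501 to 0.180, although the difference stayed between 0.73 and 0.84.

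Trav14-1 has a near copy, Trav14d-1, which was listed at 0 in all libraries. They differ at 6 of the last 180 bases, and Trav14-1 has 95.1% unique words. Trav14d-1 has no unique word, being identical to Trav14n-1, which was also listed at 0. Whether its 0 stands for a lack of RNA was not tested. The last 120 bases of Trav14-1 and Trav14d-1 are printed, with the 3 differing bases in capitals.
Trav14-1 (gene at chr14:53554022-53554558, plus strand): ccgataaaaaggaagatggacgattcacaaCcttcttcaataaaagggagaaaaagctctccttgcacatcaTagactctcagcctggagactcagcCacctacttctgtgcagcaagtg
Trav14d-1 (gene at chr14:52855614-52856166, plus strand): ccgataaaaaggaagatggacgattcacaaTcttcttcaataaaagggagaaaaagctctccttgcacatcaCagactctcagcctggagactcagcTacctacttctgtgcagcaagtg

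Trbv20 was the other segment without overlap. It had 8.21, 8.57, 3.0 and 3.12 FPKM in knockdown replicates 1, 2, 5 and 4 and 2.69, 2.89, 2.29 and 0.752 FPKM in control replicates 1 to 4. The lowest knockdown value was thus just above the highest control value. Its log2 difference of 1.03 ± 0.38 (SE) did not pass the test (limma adjusted p = 0.189).

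The remaining segments of smallest p were Trav21-dv12, Trbv4, Trbv13-1 and Trav9-1. Trav21-dv12, which can be joined into α or δ chains as its name records, had 2.26, 3.66, 1.17 and 1.06 FPKM in knockdown replicates 1, 2, 5 and 4 and 1.23, 0.794, 0.247 and 0.523 FPKM in control replicates 1 to 4. Control replicate 1 lay above both lower knockdown values. Trbv4 had 12.9, 13.1, 3.54 and 7.07 FPKM against 7.22, 3.82, 3.01 and 0.556 FPKM, again overlapping. The adjusted p-values of limma for these 4 segments ran from 0.200 to 0.274.

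Among the δ segments, Trdv4 and Trdv5 differed most in where they were found. Trdv4 had 1.48, 0.629, 1.43 and 0.487 FPKM in knockdown replicates 1, 2, 5 and 4 and 2.02, 0.459, 1.44 and 0.542 FPKM in control replicates 1 to 4, with no order between the groups (log2 difference −0.04, limma adjusted p = 0.946). Trdv5 had 2.13, 1.51, 0.367 and 1.16 FPKM against 0.475, 0.094, 0 and 0.277 FPKM. It did not pass the filter, so it was not tested, and the values overlap only through knockdown replicate 5. The Trdv5 gene lies on the opposite strand to Trdc and overlaps its end by 207 bases, and 40.6% of its words are also in Trdc transcripts, so without strand its reads and those of Trdc cannot be told apart there. Trdv2-2 likewise shares 37.6% of its words with Gm43647, an antisense gene across it. Trdv2-2 and Trdv1 had means of 0.731 and 0.710 FPKM and were each listed at 0 in 1 library.

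Expression of the recombination enzymes that join segments was near 0. Rag1 had at most 0.437 FPKM and Rag2 at most 0.148 FPKM in any library.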

How the data were processed

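Polyadenylated RNA of splenic mononuclear cells was sequenced, per the labels. The values are FPKM as the authors deposited them, 1 column for each of 8 libraries. CASAVA and Cufflinks are named without versions, per the submitters' processing notes, and the aligner, build, annotation, use of strand and treatment of multiply matching reads were not given in the sources used here. Symbols, coordinates and sequences are from GENCODE M21 (GRCm38), which named 53865 of 54018 identifiers. RefSeq promoter sequences matched none of the segments, and no protein sequence is shown. An exact 0 can be a failed estimate.

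Segments were tested in a limma 3.58.1 fit (R 4.3.3) of log2(FPKM + 1) with a mean-variance trend over the 12890 genes that reached 1 FPKM in 4 or more of the 8 libraries, with Benjamini-Hochberg adjustment and a threshold of 0.05. The fit was tested on simulated data. Values with 1 number per library were compared by two-sided exact permutation tests over 70 assignments, adjusted over 29 values. Constant regions named Tcrg-C in the annotation stand for the listed Trgc genes. The members, lists and rules were chosen with earlier results of these data known. Named were Kdm1a, the 8 segments of highest mean in Trav and Trbv and up to 4 in Trgv and Trdv, the 6 of smallest p, segments of known usage, segments reaching 20% of their family, and constant regions. Other steps used Python 3.11.15, with numpy 2.4.6, pandas 2.3.3 and matplotlib 3.10.9. Alternatives changed the pseudocount, filter, scaling, trend, detection limit, evenness measure, segments included, denominator and libraries.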

Additional observations from a re-analysis of the deposited data

Results flagged for a closer look

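In 116 groups of 4 libraries, of single values and of named segments, 2 had 1 library far from the other 3. Chance alone gives about 1 in 20 such groups. In control replicate 3 the number of Trdv segments detected was 3, while the other controls had 4 each. Trav13-4-dv7 had 2.49 FPKM in control replicate 1 and 0.808 to 0.978 FPKM in the other controls.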

How the results depend on the processing

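The single call among the segments became 0 with a pseudocount of 0.1 or 5, without a filter, after median-of-ratios or quantile scaling, with both replicate 4 libraries left out, and with any single library left out (0 in each case). It held with a filter of 0.1 FPKM and without the trend. Calls over all genes numbered 224 and became 24 with a pseudocount of 5, 2 without a filter, 148 and 122 after median-of-ratios and quantile scaling, 120 without both replicate 4 libraries, and 8 (without control replicate 4) to 333 with 1 library left out. Same-numbered libraries deviated together little (correlations of 0.163, 0.0469 and −0.118), and the main tests did not pair them. These correlations cannot show whether the numbers mark pairs. With the replicate block there were 0 calls among all genes and 0 among the segments. The Trav top share difference was then 2.44 percentage points and that of Kdm1a −0.41. For such single values the block test used replicates 1, 2 and 4 only. Its few assignments could not reach the threshold with any values, so it cannot say whether these differences hold. Without both replicate 4 libraries the top share and Kdm1a differences were 1.32 and −0.29. Over single libraries left out they ran from 1.31 to 2.40 and from −0.53 to −0.35. The top share no longer passed the threshold without any 1 of the 4 controls (exact permutation p up to 0.171), although its groups still did not overlap. Nor did Kdm1a pass in 6 of the 8 cases (exact permutation p up to 0.114). By family number the top share difference was 1.40. Differences of both signs were found for measures that never reached the threshold. Trav evenness was −0.0085 and turned to 0.00105 over segments above 0 in any library and 0.000413 by family number. Trbv evenness was −0.0113 and turned to 0.00154 with gene biotypes alone and 0.0152 over segments above 0 in any library. The effective number of Trav segments was 0.242 and turned to −0.198 with gene biotypes alone, −1.11 as inverse Simpson number, −0.295 by family number, and −1.16 to 1.34 with single libraries left out. The log2 ratios to constant regions turned to 0.049 (Trav), 0.73 (Trgv2) and 0.29 (Trdv) with Cd3d, Cd3e and Cd3g as denominator, that of Trgv2 to 0.022 without both replicate 4 libraries, and that of Trav ran from −0.089 to 0.059 with single libraries left out. The Trbv top share difference turned to 0.315 without both replicate 4 libraries and ran from −2.12 to 0.11 with single libraries left out. For Trdv segments detected that range was −0.0833 to 0.583, for Tcrg-C1 1.53 to 2.35 and for Tcrg-C2 1.02 to 1.44. With control replicate 1 as the only control the summed differences were −0.33 (Trav), −0.14 (Trbv), −0.29 (Trdv) and −0.19 (all), and 0.10 for Trgv2. The causes were not tested. Both replicate 4 libraries and control replicate 1 were singled out after seeing the data. Short segments at a few FPKM rest on few fragments, which limits single-segment comparisons.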

Other observations

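Outside the symbol rule, Tcrg-V4 had 3.53, 2.85, 1.92 and 1.39 FPKM in knockdown replicates 1, 2, 5 and 4 and 1.74, 0.69, 0.54 and 1.26 FPKM in control replicates 1 to 4. Tcrg-V1 had 2.10, 3.94, 1.45 and 0.55 FPKM against 1.04, 0.86, 1.03 and 0.73 FPKM. Summed over the 6 Tcrg-V rows, the knockdown libraries had 2.16 to 8.0 FPKM and the control libraries 1.68 to 3.26 FPKM. Among the joining segments of the α chain, Traj9, of 58 bases, had 1822 FPKM in knockdown replicate 4 and Traj31, of 57 bases, had 1126 FPKM in control replicate 2. Both were at 0 in the other 7 libraries, and no other joining segment was above 0.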
